A study of Mus musculus with 18 samples.

Results

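The genes described here encode subunits of the mitochondrial oxidative phosphorylation system. They were chosen by symbol: mt-Nd, mt-Co, mt-Cytb and mt-Atp genes of the mitochondrial genome, Nduf genes of the a, ab, b, c, s and v series, Sdha, Sdhb, Sdhc, Sdhd, genes starting with Uqcr, Cyc1, Cox4 to Cox8 genes and Atp5 genes. Symbols of named pseudogenes, 9 in all, were left out. Of 54569 symbols in both count tables, 103 met this rule, 13 of them mitochondrially encoded and 90 nuclear encoded. By complex they divide into 48 for complex I, 4 for complex II, 10 for complex III, 22 for complex IV and 19 for complex V. Of the nuclear members, 4 are annotated as processed pseudogenes despite their symbols (Cox6c2, Ndufa11b, Ndufb4c and Ndufs6b).

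Complexes I and II feed electrons from NADH and succinate into ubiquinone, complex III passes them to cytochrome c, and complex IV reduces oxygen. The proton gradient built on the way drives complex V, the ATP synthase. Complexes I, III, IV and V each join subunits made inside the mitochondrion from its own genome with subunits imported from the cytosol, while complex II is nuclear encoded only. Pluripotent stem cells are known for strong glycolysis, and the balance between glycolysis and respiration changes in many lineages as they differentiate.

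The study asked how Dlx2, a homeobox factor of the pharyngeal arches, moves mouse embryonic stem cells toward ectomesenchyme, the craniofacial mesenchyme of neural crest origin. All libraries came from embryonic stem cells with a tdTomato reporter for Msx1, and the groups with columns hold 14 libraries, 2 per group. At day 2, embryoid bodies (EBs) with inducible Dlx2 overexpression stood against EBs with inducible GFP overexpression, both given 1 µg/ml doxycycline while they formed in hanging drops. Dlx2 and GFP were carried by separate inducible lines, so a difference between the lines cannot be told apart from an effect of the transgene. At days 8 and 16, EBs of the inducible Dlx2 line kept under doxycycline were sorted by flow cytometry into Msx1+ and Msx1- cells, so both fractions carry the Dlx2 transgene and no GFP or uninduced group stands beside them. Untreated stem cells labelled ES and WT, grown with serum and LIF, completed the set. The 4 samples of the 2 uninduced day-2 groups were not analysed here.

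Day-2 libraries held 26211608 to 41552818 counts and the others 53797597 to 107770730. Levels are given as CPM, counts scaled to the size and composition of the library. Changes are on the log2 scale, each with its SE (standard error), from edgeR's quasi-likelihood test. A gene was called, and is said to have risen or fallen, at an adjusted p below 0.05 over all genes tested. The labels do not say whether replicates were separate cultures, so p-values measure only the spread between these libraries, which may be technical. With 2 libraries against 2, the smallest exact permutation p of a single value is 0.333, and every call rests on spread shared across genes. In bulk RNA, fewer cells of a type and less RNA per cell cannot be told apart.

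Dlx2 itself stood at 4341 to 4716 CPM in Dlx2 EBs and at 0.081 CPM in GFP EBs. It was 1136 to 1269 CPM in Msx1+ and 269 to 272 CPM in Msx1- cells at day 8, and 288 to 341 CPM in Msx1+ and 131 to 146 CPM in Msx1- cells at day 16. The libraries labelled ES held 219 to 222 CPM of Dlx2, which goes against a wild-type, untreated label. Msx1 was 40.9 to 46.8 CPM in Msx1+ and 1.02 to 1.90 CPM in Msx1- cells at day 8, and 73.7 to 81.6 CPM in Msx1+ and 0.752 to 0.818 CPM in Msx1- cells at day 16. Summed pluripotency markers (Pou5f1, Nanog, Sox2, Zfp42, Klf4, Esrrb) were 673 to 690 CPM in Dlx2 and 2130 to 2203 CPM in GFP EBs, 757 to 771 in Msx1+ and 2373 to 2407 in Msx1- cells at day 8, and 157 to 167 in Msx1+ and 1800 to 1806 in Msx1- cells at day 16. All 6 fell in each of these comparisons, and all 5 mesenchyme markers (Prrx1, Twist1, Pdgfra, Col1a1, Col1a2) rose in each. Of 6 dissociation and stress genes, 6 rose in the day-2 comparison, 5 in that of day 8 and 4 in that of day 16, where Atf3 fell. They summed to 244 to 250 CPM in Dlx2 and 84.6 to 86.3 CPM in GFP EBs, 551 to 569 in Msx1+ and 200.3 to 208 in Msx1- cells at day 8, and 1169 to 1252 in Msx1+ and 498 in Msx1- cells at day 16. Their part, and the part of the fewer pluripotent transcripts, in the results that follow was not tested.

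Of the 103 members, 102 stand in each table: Atp5f1 is listed only at day 2 and Cox8b only in the table of the other libraries. After the filter on low counts 98 were tested at day 2 and 99 in the other libraries. Ndufa11b and Cox8b passed in neither table. Cox6c2, Cox7b2 and Ndufa4l2 were not tested at day 2, and Ndufs3 was not tested later. The tables differ for a few members beyond what groups of a table differ by. Atp5a1, the alpha subunit of complex V, averaged 1129 CPM in GFP EBs and 20.3 CPM in the libraries labelled ES. Uqcrc1, a core subunit of complex III, averaged 267 and 8.31 CPM in the same groups, and Ndufs3, a core subunit of complex I, 36.1 and 0.0874 CPM. The cause was not tested, and levels are therefore compared only within a table.

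The mitochondrial genes split into genes with many counts and genes with few. Nd1, Nd2, Nd4, Nd5, Nd6, Cytb and Co1 had 14194 to 893870 counts per library, while Co2, Co3, Atp6, Atp8, Nd3 and Nd4l had 3 to 3803. Per kilobase, the libraries labelled ES averaged 6244 CPM for mt-Co1, the catalytic subunit of complex IV, and 44.2 CPM for mt-Co2, its partner that takes electrons from cytochrome c. The low genes other than mt-Atp8 have near-identical copies in the nuclear genome. A run of annotated pseudogenes on chromosome 1 (chr1:24611535-24615565, GRCm38) matches mt-Co2 over 681 bases, mt-Atp6 over 678, mt-Co3 over 783 and mt-Nd4l over 294 with 0 differences, and mt-Nd3 over 345 bases with 1 difference. The copy of mt-Co2, Gm28661, had 922 to 4385 counts per library, and mt-Co2 itself 1406 to 3803.

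The share of 31-base words that a gene has in common with annotated pseudogenes was 98.1% to 100% for mt-Co2, mt-Co3, mt-Atp6, mt-Nd3 and mt-Nd4l, but 7.47% for mt-Atp8, which had 3 to 27 counts and overlaps mt-Atp6. It was 0% for mt-Nd1 and 6.55% for mt-Cytb. Of mt-Nd4, 876 bases are matched with 0 differences by Gm28439 in the same run on chromosome 1, and 502 are not. For mt-Co1, the closest whole copy, Gm13340 on chromosome 2, differs at 37 of 1545 bases. Of its 31-base words, mt-Co1 has 63.9% in common with annotated pseudogenes, and mt-Nd4 has 62.8%. The first 60 bases of mt-Co1 and mt-Co2 are shown with those of their copies. Capitals mark bases at which a gene and its copy differ. In this stretch mt-Co1 and Gm13340 differ at 2 bases near its end, and mt-Co2 and Gm28661 have no differences. Reads from bases without a difference match both places. The positions are chrM:5328-5387 and chrM:7013-7072 on the plus strand, chr2:22589588-22589647 and chr1:24615506-24615565 on the minus strand.
mt-Co1: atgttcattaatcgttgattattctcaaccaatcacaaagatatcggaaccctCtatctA
Gm13340: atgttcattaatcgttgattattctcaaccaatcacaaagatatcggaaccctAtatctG
mt-Co2: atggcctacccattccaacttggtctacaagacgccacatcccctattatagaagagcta
Gm28661: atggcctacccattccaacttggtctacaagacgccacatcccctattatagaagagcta
How the authors' counting assigned reads that match both places is not given in the sources used here. Values of the 5 genes at 98.1% to 100% are uncertain, and reads from the shared parts of mt-Co1 and mt-Nd4 are open to the same question. Counts over all 13 mitochondrial genes are given beside those of the 7 well-counted ones, a split chosen after the counts had been seen.

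**Figure D1:**
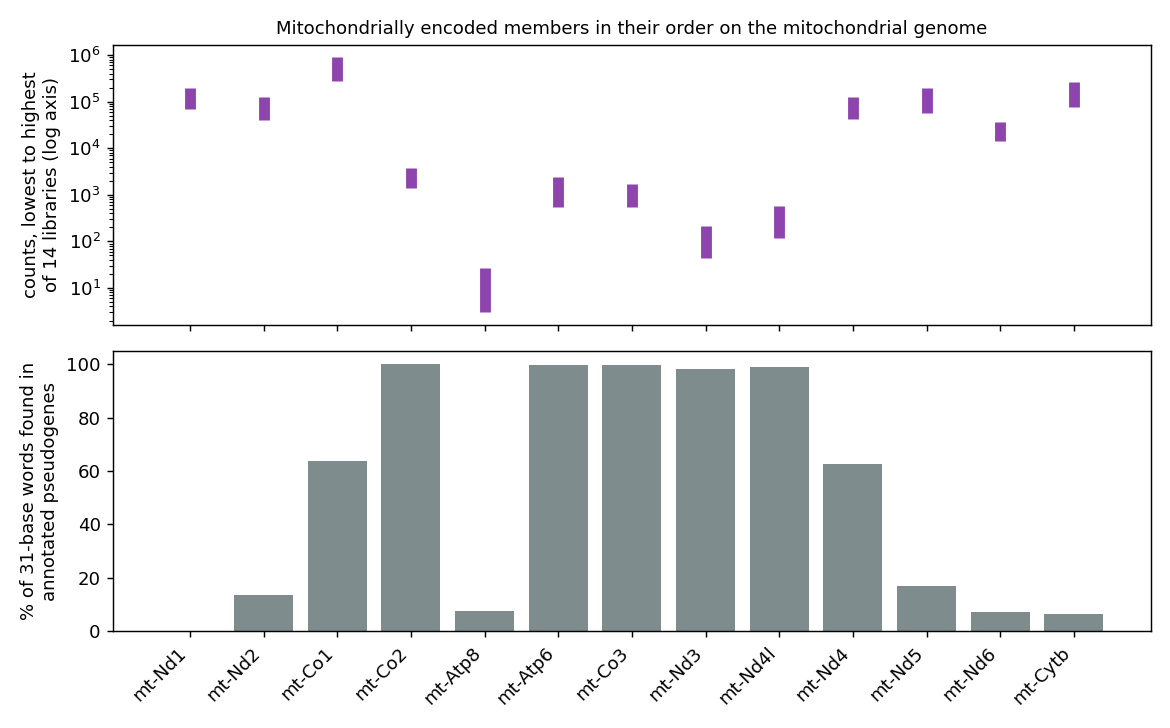
The 13 mitochondrial genes in genome order, with the lowest and highest counts over the 14 libraries on a log axis (top) and the percentage of each gene's 31-base words found in annotated pseudogenes (bottom). Genes at 98.1% to 100% have at most 3803 counts in any library, and mt-Co1 reaches 893870.

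At day 2 most mitochondrial members fell, while more nuclear members rose than fell. Of 13 mitochondrial genes 9 fell and 1 rose in Dlx2 EBs relative to GFP EBs, with a median log2 change of -0.68. The 7 well-counted genes all fell (median -0.75), and the gene that rose, mt-Nd3, is among those with nuclear copies. Of 85 nuclear members tested 42 rose and 20 fell, with a median of 0.16. Over all 18650 genes 67.2% were called, 34.1% higher and 33% lower, and the median was 0.02. Scaling by library size alone gave 54 nuclear members higher and 9 lower at a median of 0.33, but moved the median of all genes to 0.20 as well. Relative to the median of all genes the nuclear members lay 0.14 higher, and the mitochondrial ones 0.71 lower. Scaling shifts all genes of a comparison nearly alike, so these differences were the same under both scalings by construction. The nuclear difference was 0.065 without a filter on low counts, where the median of all genes was 0.10, and 0.19 with a stricter filter.

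Mitochondrially encoded messages took 1.91% and 1.82% of the counts in Dlx2 libraries, against 3.26% and 2.83% in GFP libraries. Nuclear encoded members took 1.177% and 1.240% in Dlx2 libraries, against 1.01% and 1.05% in GFP libraries. The ratio of mitochondrial to nuclear counts averaged 1.54 ± 0.11 in Dlx2 EBs and 2.96 ± 0.37 in GFP EBs (SD of 2 libraries each). As scaled CPM, the nuclear members summed to 11081 and 11678 in Dlx2 and to 10798 and 11097 in GFP libraries, and these sums overlapped. The shares of raw counts did not overlap between the groups, and both GFP libraries had a higher ratio than both Dlx2 libraries.

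All 7 well-counted mitochondrial genes fell at day 2. mt-Co1 had 8513 and 8058 CPM in Dlx2 EBs, against 17830 and 15670 CPM in GFP EBs, a log2 change of -1.02 (SE 0.06, adjusted p = 4e-13). mt-Cytb, the catalytic core of complex III, had 2345 and 2263 CPM with Dlx2, against 4579 and 3975 CPM with GFP (-0.89, SE 0.06). The complex I genes mt-Nd4, mt-Nd1, mt-Nd2 and mt-Nd5 fell by 0.95, 0.75, 0.68 and 0.60. In each of these genes both Dlx2 libraries lay below both GFP libraries. The share of all genes separated in this way was not counted, and 33% of all genes were called lower. mt-Nd6, the only message here read from the light strand, had 526.7 and 510.3 CPM with Dlx2, against 713 and 573 CPM with GFP, a smaller change of -0.31 (SE 0.09, adjusted p = 0.0155). It overlaps mt-Nd5 on the opposite strand, and the kit does not mark strand. The calls for mt-Nd6 and mt-Nd2 were lost without either Dlx2 library: with replicate 1 left out the adjusted p was 0.239 and 0.0976, with replicate 2 left out 0.237 and 0.0771. The call for mt-Nd6 was also lost with DESeq2 (adjusted p = 0.0847). Among the genes with nuclear copies, mt-Nd4l and mt-Atp6 fell by 0.79 and 0.39, while mt-Nd3 rose by 0.90 on 217 and 159 counts in Dlx2 and 74 and 52 counts in GFP libraries. mt-Co2, mt-Co3 and mt-Atp8 did not pass (-0.34, -0.89 and 0.62).

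Counts of the ribosomal RNAs of the same genome did not follow those of the messages. The part of library preparation, such as selection of messages or removal of ribosomal RNA, in these counts was not tested. mt-Rnr2, the large ribosomal RNA, had 403.8 and 350.4 CPM in Dlx2 EBs and 420 and 353.7 CPM in GFP EBs (log2 change -0.04, SE 0.09, not called). mt-Rnr1, the small one, had 159.9 and 153.8 CPM with Dlx2 and 144.2 and 122.8 CPM with GFP, and rose by 0.23 (SE 0.06, adjusted p = 0.00175).

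**Figure D2:**
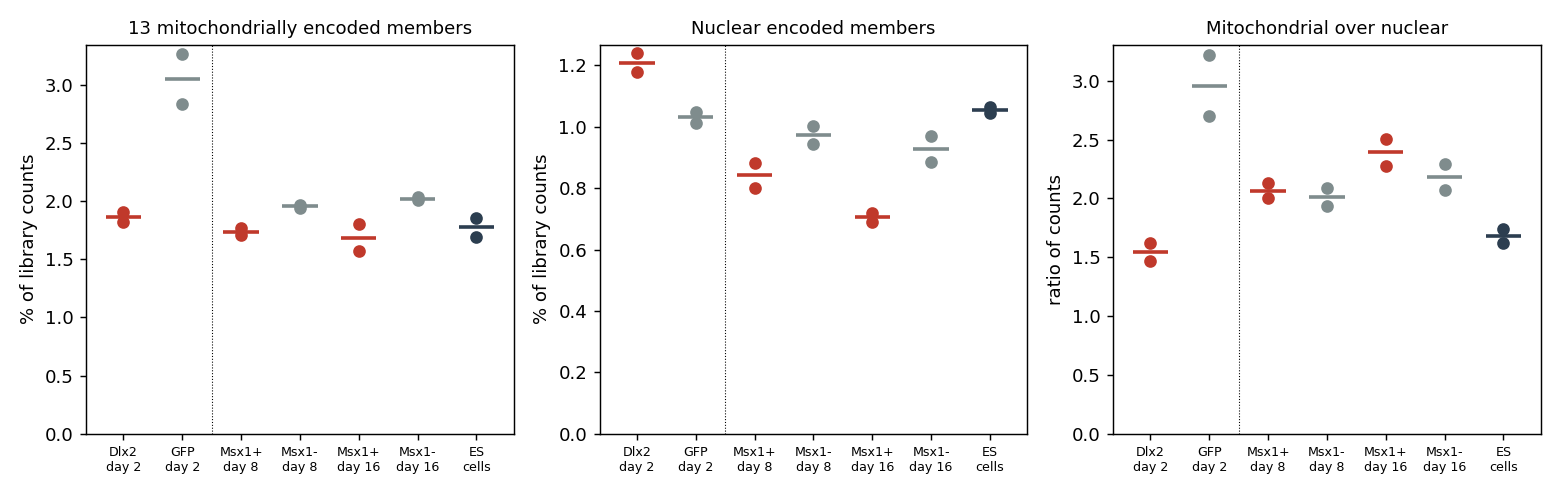
Percentage of library counts from mitochondrial and from nuclear encoded members, and the ratio of both, with a point for each library and a line at the group mean. At day 2 the Dlx2 EBs stand at 1.91% and 1.82% in the first panel and the GFP EBs at 3.26% and 2.83%. Among the sorted libraries, Msx1+ cells at day 16 are lowest in the second panel (0.691% and 0.719%).

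Changes of the nuclear members at day 2 are given by complex, and differences between complexes were not tested. Complex IV had the highest median, 0.51, with 11 of 16 tested members higher and 1 lower. Complex I had 20 of 39 higher and 7 lower at a median of 0.29, and complex V 8 of 17 higher and 6 lower at 0.07. Complex III had 3 of 9 higher and 4 lower at -0.14. In complex II, 2 of 4 fell. Over all genes 34.1% were higher and 33% lower. Summed over the nuclear subunits of complex IV, Dlx2 libraries held 2184 and 2335 CPM and GFP libraries 1828 and 1948 CPM, whereas the mitochondrial subunits of the same complex summed to 8608 and 8148 CPM with Dlx2 and to 17990 and 15780 CPM with GFP. Neither sum of complex IV overlapped between the groups, with the nuclear one higher and the mitochondrial one lower in Dlx2 EBs. The nuclear sum of complex I was also higher in Dlx2 libraries (2449 and 2601 CPM, against 2274 and 2307 CPM in GFP libraries). Those of complexes II and III were lower (623 and 639 CPM, and 1202 and 1244 CPM, in Dlx2 libraries, against 663 and 669 CPM, and 1293 and 1295 CPM, in GFP libraries). That of complex V overlapped (4623 and 4859 CPM in Dlx2 and 4740 and 4878 CPM in GFP libraries).

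By fold change the top nuclear members that rose were Cox6a2, Cox8c and Atp5k. Atp5k encodes the e subunit of the ATP synthase, which helps hold its dimers together, and had 47.8 and 57.4 CPM in Dlx2 EBs against 20.6 and 18.9 CPM in GFP EBs (1.41, SE 0.09, adjusted p = 5.11e-12). Cox6a2, the heart and skeletal muscle form of subunit 6a, rests on 31 and 14 counts with Dlx2 and 1 and 3 counts with GFP. Its ratio from summed counts was 7.97, with an exact 95% counting interval of 2.91 to 30.5, which covers counting error only. Without Dlx2 replicate 1 its call was lost (adjusted p = 0.158). Cox8c, known from testis, had 25 and 16 counts with Dlx2 and 4 and 4 with GFP (1.65, SE 0.62), and its call was lost without any 1 of the 4 libraries (adjusted p 0.092 to 0.264). Cox5b, a zinc-binding subunit of complex IV, had 149.6 and 169.3 CPM in Dlx2 EBs and 65.5 and 72.8 CPM in GFP EBs, and rose by 1.20 (SE 0.06).

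The nuclear members with the steepest falls at day 2, Ndufb2, Ndufs8 and Ndufa11, belong to complex I. Ndufb2, an accessory membrane subunit, had 4.33 and 5.96 CPM in Dlx2 EBs, against 11.8 and 9.69 CPM in GFP EBs (-1.08, SE 0.16). It shares exon bases with Braf on the opposite strand, which these libraries do not separate. Ndufs8, an iron-sulfur subunit on the path of the electrons, had 37.1 and 41.6 CPM with Dlx2 and 66.4 and 64.7 CPM with GFP (-0.74, SE 0.07), and Ndufa11 of the membrane arm fell by 0.60. In complex II, the iron-sulfur subunit Sdhb fell by 0.28 and the membrane anchor Sdhd by 0.27. The flavoprotein Sdha and the anchor Sdhc did not pass (0.06 and -0.08). With library size alone as the scaling, the calls for Sdhb and Sdhd were lost (adjusted p = 0.113 and 0.117).

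**Figure D3:**
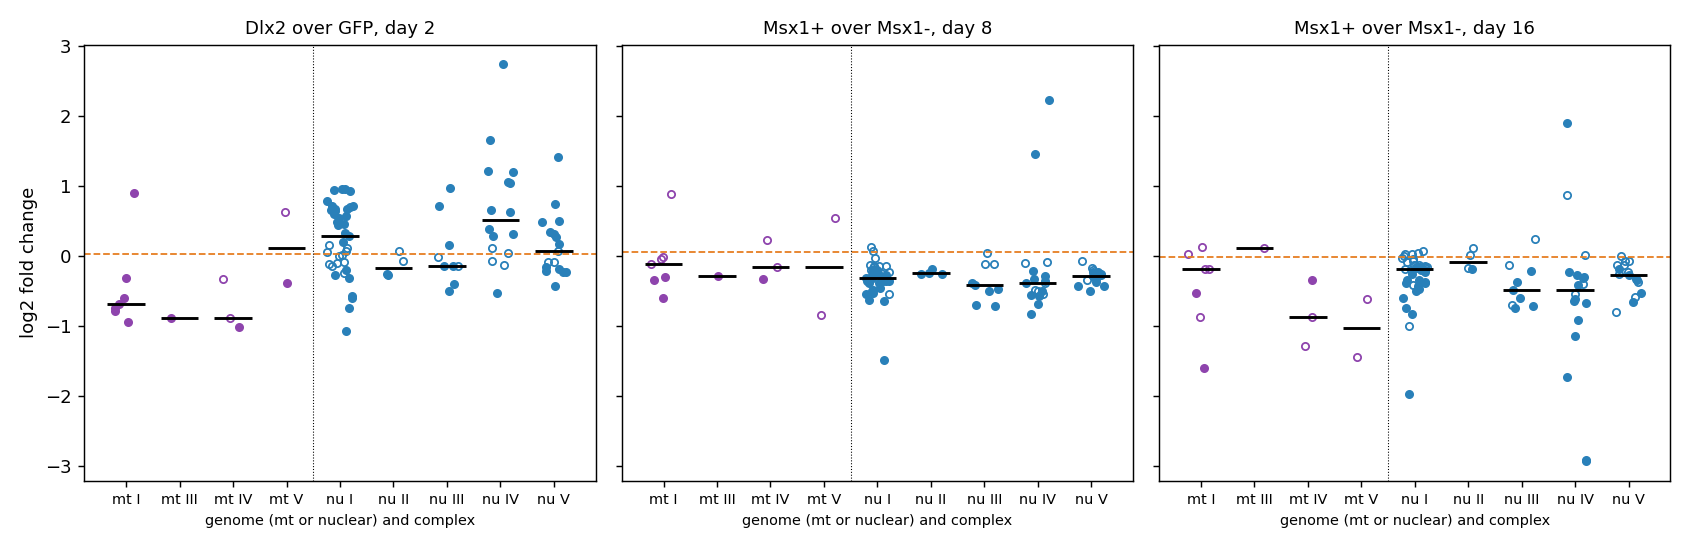
Log2 fold change of every tested member by genome and complex, for Dlx2 against GFP EBs at day 2 and Msx1+ against Msx1- cells at days 8 and 16. Filled points are called, open points are not, bars are medians and the dashed line is the median of all genes. Pooled over complexes, mitochondrial and nuclear medians lie at -0.68 and 0.16 at day 2, and both lie below the line at days 8 and 16. At day 16 mitochondrial complex III, which is mt-Cytb alone, lies above the line (0.11).

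A property that the choice by symbol did not use, the length of the main transcript, ran with the day-2 changes of the nuclear members. Among 20 members of up to 600 bases 15 rose and 3 fell, with a median of 0.65, and among 29 of 600 to 1000 bases 19 rose and 3 fell, with a median of 0.34. Of 25 members of 1000 to 2000 bases 6 rose and 10 fell (median -0.09), and of 8 longer ones 1 rose and 4 fell (-0.15). Medians of all coding genes in the same bins were 0.25, -0.01, -0.05 and 0.05. Across genes, which are not independent replicates, Spearman's rho was -0.498 over 82 nuclear members and 0.076 over 15026 coding genes. At days 8 and 16 it was 0.248 and 0.32 for the members and 0.164 and 0.185 for all coding genes. At day 16, the median of members of up to 600 bases (-0.60) lay beside that of all coding genes of that length (-0.61), and those of 600 to 1000 bases were -0.27 in both. For 1000 to 2000 bases the medians were -0.18 for members and -0.14 for all coding genes, and for over 2000 bases, with 8 members, -0.18 and 0.11. At day 8 the members lay below coding genes of the same length in every bin, from the shortest on at -0.41, -0.31, -0.31 and -0.23, against -0.24, -0.19, -0.06 and 0.14 for coding genes. The part of transcript length in the changes of single members was not tested.

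**Figure D4:**
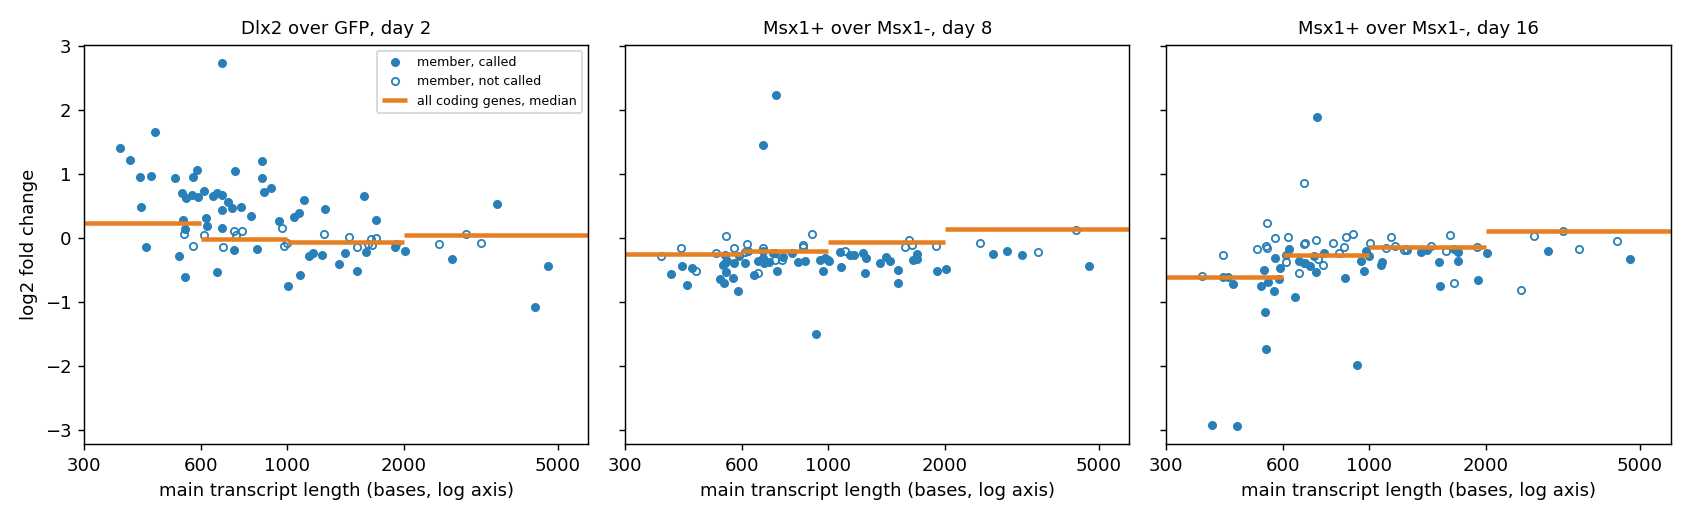
Log2 fold change of nuclear members against the length of the main transcript in bases (log axis) for 3 comparisons, with medians of all coding genes per length bin. At day 2 the members of up to 600 bases have a median of 0.65 and those over 2000 bases of -0.15; at day 16 short members and short coding genes in general lie near -0.6.

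The comparison of sorted fractions asks how Msx1+ cells differ from the Msx1- cells beside them. At day 8, 56 of 86 nuclear members fell in Msx1+ cells and 2 rose, with a median of -0.32, and 5 of 13 mitochondrial genes fell. At day 16, 43 nuclear members fell and 1 rose, with a median of -0.26, and 3 mitochondrial genes fell. Of the 7 well-counted mitochondrial genes 5 fell at day 8 (median -0.30, against -0.15 over all 13) and 2 at day 16 (-0.18, against -0.54 over all 13). Over all 22294 genes 54.7% were called at day 8, 30.4% higher and 24.3% lower, and 62.1% at day 16, 31.1% higher and 31% lower. The number of mitochondrial genes that fell depended on the setting. By DESeq2, 6 of them fell and 1 rose at day 8, and 8 fell at day 16. With library size alone 2 fell at day 8 and 5 at day 16, and without a filter 5 and 6 fell. Without Msx1+ replicate 1, members that rose at day 16 numbered 4 in place of 1, and without Msx1- replicate 1 those that rose at day 8 numbered 1 in place of 2. With library size alone as the scaling, 24 nuclear members fell and 3 rose at day 8, as the median of all genes moved to 0.22 from 0.06. The nuclear median lay 0.38 below that of all genes, a difference that a change of scaling leaves nearly the same by construction. The Msx1+ cells hold fewer pluripotency transcripts and more transcripts of stress genes, as given above.

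The shares of counts did not overlap between the fractions. Nuclear members took 0.882% and 0.802% of counts in Msx1+ cells at day 8, against 0.942% and 1.00% in Msx1- cells, and at day 16 they took 0.691% and 0.719% in Msx1+ against 0.970% and 0.886% in Msx1- cells. Mitochondrial members took 1.77% and 1.71% in Msx1+ against 1.97% and 1.94% in Msx1- cells at day 8, and 1.57% and 1.80% in Msx1+ against 2.01% and 2.03% in Msx1- cells at day 16. In each of these 4 contrasts both Msx1+ libraries lay below both Msx1- libraries. The ratio of mitochondrial to nuclear counts, by contrast, was 2.07 ± 0.09 in Msx1+ and 2.01 ± 0.11 in Msx1- cells at day 8, and 2.39 ± 0.16 in Msx1+ and 2.18 ± 0.16 in Msx1- cells at day 16. These ratios overlapped between the fractions.

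Members fell in every complex, while over all genes 24.3% were lower at day 8 and 31% at day 16. At day 16 the shares that fell in complexes II (25%) and V (37.5%) lay near that of all genes. At day 8, 25 of 39 nuclear members of complex I, 4 of 4 of complex II, 6 of 9 of complex III, 10 of 18 of complex IV and 11 of 16 of complex V fell, with medians between -0.41 for complex III and -0.25 for complex II. At day 16 the members that fell numbered 18 in complex I, 1 in II, 6 in III, 12 in IV and 6 in V, and the medians of complexes III and IV (-0.49 and -0.48) lay below those of complexes I, II and V (-0.18, -0.08 and -0.27). The nuclear subunits of complex IV summed to 1845 and 1607 CPM in Msx1+ and 2157 and 2417 CPM in Msx1- cells at day 8. At day 16 they summed to 1441 and 1549 CPM in Msx1+ and 2239 and 1988 CPM in Msx1- cells.

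Of the mitochondrial genes, mt-Nd1 and mt-Co1 fell at both days under every setting tried. mt-Nd1 is a core membrane subunit of complex I. It shared none of the sequence words compared above with annotated pseudogenes, and other nuclear copies were not searched for. mt-Nd1 had 1785 and 1720 CPM in Msx1+ against 2614 and 2685 CPM in Msx1- cells at day 8 (-0.60, SE 0.07). At day 16 it had 1583 and 1902 CPM in Msx1+ against 2506 and 2544 CPM in Msx1- cells (-0.54, SE 0.07). mt-Co1 fell by 0.34 (SE 0.06) at each day. At day 8 mt-Nd2, mt-Nd4 and mt-Cytb fell as well (-0.35, -0.30 and -0.28), and these 3 calls were lost when scaled by library size alone. mt-Nd5 and mt-Nd6 did not pass at either day, with changes of -0.12 to 0.13. At day 16 mt-Nd3 fell by 1.61 on 44 and 65 counts in Msx1+ and 192 and 130 counts in Msx1- cells, a call lost without any 1 of these libraries (adjusted p 0.057 to 0.213) and with the replicate number as a block (0.0528). Both ribosomal RNAs fell: mt-Rnr1 by 0.58 and 1.25 and mt-Rnr2 by 0.65 and 0.81 at days 8 and 16. Here too the part of library preparation in their counts was not tested.

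Nuclear subunits of complex III were among the steepest falls at day 8. Uqcr10, a small accessory subunit, had 73.7 and 69.7 CPM in Msx1+ cells, against 112.6 and 123.9 CPM in Msx1- cells (-0.72, SE 0.07, adjusted p = 9.37e-07). In complex II, Sdha fell at both days by 0.19 (SE 0.05), Sdhb, Sdhc and Sdhd fell by 0.27, 0.25 and 0.24 at day 8, while Sdhb, Sdhc and Sdhd did not pass at day 16 (0.01, 0.11 and -0.18). The 4 day-8 calls were all lost under scaling by library size alone (adjusted p 0.102 to 0.555). That for Sdha was lost without Msx1+ replicate 1 (0.0616), and those for Sdhc and Sdhd without Msx1+ replicate 2 (0.159 and 0.25). Sdhc was also lost without Msx1- replicate 2 (0.0507), and Sdhd without Msx1- replicate 1 (0.1).

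Paralogous subunits are given with their common forms, and differences between the forms were not tested. Cox4i2, the form of subunit 4 known from lung and from hypoxic cells, rose in Msx1+ cells at both days. It had 4.63 and 3.92 CPM in Msx1+ against 0.648 and 1.182 CPM in Msx1- cells at day 8 (2.23, SE 0.31, adjusted p = 1.97e-05). At day 16 it had 4.41 and 4.86 CPM in Msx1+ against 1.62 and 0.867 CPM in Msx1- cells (1.90, SE 0.30). The groups did not overlap, and both calls held under every setting tried. The common form Cox4i1 fell by 0.28 and 0.23 at the same days, and had 295 and 278 CPM in Msx1+ and 336 and 361 CPM in Msx1- cells at day 8. Its day-8 call was lost under scaling by library size alone (adjusted p = 0.0887). At day 2 Cox4i2 had 1.13 and 0.954 CPM with Dlx2 and 0.527 and 0.484 CPM with GFP (1.04, SE 0.42, adjusted p = 0.0309), a call lost without any 1 of the 4 libraries (0.0656 to 0.247) and with DESeq2 (0.146).

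Cox7a1, the form of subunit 7a known from heart and skeletal muscle, went the opposite way at day 16. It had 1.54 and 1.04 CPM in Msx1+ cells, against 11.7 and 7.80 CPM in Msx1- cells (-2.92, SE 0.24, adjusted p = 6.7e-08). At day 8 it had 5.97 and 4.74 CPM in Msx1+ and 7.32 and 8.39 CPM in Msx1- cells (-0.56, SE 0.21), a call lost without Msx1+ replicate 2 or Msx1- replicate 2 (adjusted p = 0.202 and 0.145) and under scaling by library size alone (0.13). The effect at day 16 differed from that at day 8 by -2.36 (SE 0.31, adjusted p = 5.83e-05). At day 2 Cox7a1 rose by 1.22 (SE 0.17), with 6.96 and 8.64 CPM in Dlx2 and 3.12 and 3.55 CPM in GFP EBs. Cox7a2 fell by 0.53 at day 2 and did not pass at days 8 and 16 (-0.55 and -0.54), and Cox7a2l, a factor of respiratory supercomplexes, fell by 0.21 and 0.42. The day-8 call of Cox7a2l was lost without Msx1+ replicate 2 (adjusted p = 0.307), Msx1- replicate 1 (0.0535) or Msx1- replicate 2 (0.0947), under scaling by library size alone (0.608) and with the replicate number as a block (0.0541). Of the muscle markers, 4 skeletal ones summed to 6.4 to 7.95 CPM in Msx1+ and 16.9 to 17 CPM in Msx1- cells at day 16, and 2 of 3 tested fell. Another 6 cardiac ones summed to 9.94 to 11.5 CPM in Msx1+ and 21.1 to 22.0 CPM in Msx1- cells, with 3 of 5 tested lower and 1 higher. Their part in the change of Cox7a1 was not tested.

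Ndufa4l2, a paralogue of Ndufa4 known as a target of hypoxia-inducible factor, was low in Msx1+ cells at both days. It had 1.75 and 1.95 CPM in Msx1+ against 4.71 and 5.67 CPM in Msx1- cells at day 8 (-1.49, SE 0.18). At day 16 it had 1.49 and 1.51 CPM in Msx1+ against 5.90 and 5.87 CPM in Msx1- cells (-1.97, SE 0.19). Ndufa4, counted here with complex I by its symbol although known as a subunit of complex IV, fell by 0.39 and 0.26. The day-16 call of Ndufa4 was lost without replicate 1 of Msx1+ (adjusted p = 0.205) or of Msx1- cells (0.161), and the day-8 call under scaling by library size alone (0.057).

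Forms known from testis and muscle moved as well, most of them on few counts. Cox6b2, a testis form, fell by 0.83 and 0.64 at days 8 and 16, with 46.6 and 42.5 CPM in Msx1+ and 72.7 and 85.0 CPM in Msx1- cells at day 8, and its common form Cox6b1 did not pass (-0.09 and 0.01). At day 2 Cox6b2 and Cox6b1 rose by 1.06 and 0.32. Cox6a2 rose by 1.46 at day 8 on 44 and 52 counts in Msx1+ and 10 and 12 in Msx1- cells, a call lost without replicate 1 of either group (adjusted p = 0.114 and 0.12), while Cox6a1 fell by 0.39. Cox8c had 4 and 2 counts in Msx1+ and 30 and 16 in Msx1- cells at day 16, a ratio of 0.124 with an exact 95% counting interval of 0.0432 to 0.29. Cox8a, the common form, rose by 0.63 at day 2 and fell by 0.36 and 0.68 at days 8 and 16. Its day-2 call was lost without Dlx2 replicate 1 or 2 (adjusted p = 0.122 and 0.126), and its day-8 call under scaling by library size alone (0.0765). Cox8b, the other muscle form of subunit 8, did not pass the filter. Cox7b2 fell at day 16 (-1.74) on 5 and 6 counts in Msx1+ and 22 and 14 in Msx1- cells. That call was lost without 3 of these 4 libraries, with changes of -1.841 to -1.393. It was also lost with DESeq2 (adjusted p = 0.0602), without a filter (0.0662), with the replicate number as a block (0.051) and with only the groups compared (0.0513). Cox7b fell by 0.33 and 0.28, with both calls lost without some libraries (Msx1+ replicate 2, 0.0895, or Msx1- replicate 2, 0.0548, at day 8, and also library size alone, 0.173, and replicate 1 of Msx1+, 0.236, or Msx1-, 0.158, at day 16).

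The genes Atp5g1, Atp5g2 and Atp5g3 encode the same c-ring protein of complex V with different import signals. At day 2 Atp5g1 and Atp5g2 fell by 0.43 and 0.18 and Atp5g3 rose by 0.48. The call for Atp5g2 was lost without Dlx2 replicate 1, where the change was -0.108. With library size alone as the scaling the call was lost too, at a change of -0.008 (adjusted p = 0.904). In the sorted cells Atp5g1 fell by 0.43 and 0.33 and Atp5g3 by 0.23 and 0.27, and Atp5g2 fell at day 16 (-0.53). The day-8 call of Atp5g3 was lost under scaling by library size alone (0.266). Per kilobase of exon, Atp5g3 averaged 132.5 CPM in the libraries labelled ES and Atp5g1 37.6 CPM.

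**Figure D5:**
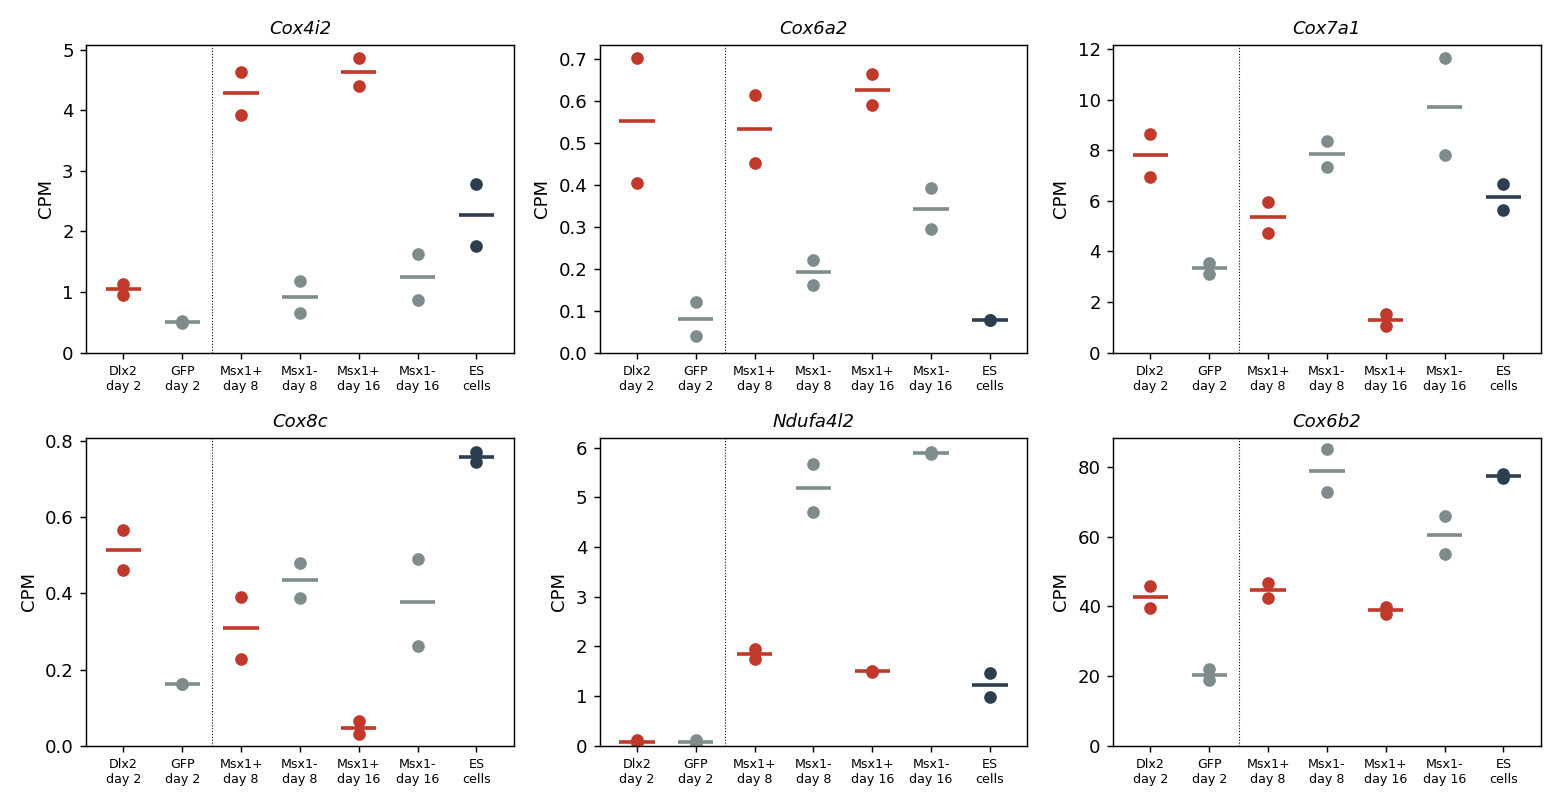
CPM per library of 6 paralogous or tissue-restricted subunits in all groups, on axes from 0, with a dotted line between the tables. Cox4i2 stands at 3.92 to 4.86 CPM in Msx1+ cells of both days and at 0.648 to 1.62 CPM in Msx1- cells, and Cox7a1 at 1.04 and 1.54 CPM in Msx1+ cells of day 16.

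The effect of the fraction differed between days 16 and 8 for 11 members, of which 6 shifted upward and 5 downward, with 28.6% of all genes called, 10.3% higher and 18.3% lower. The count was 7 without Msx1+ replicate 2 of day 16 and 7 without Msx1- replicate 1 of day 16. With library size alone 10 nuclear members shifted downward, while the median of all genes moved to -0.28 from -0.10. Cox5a and Cox5b, which form a pair of nuclear subunits around the catalytic core of complex IV, both shifted downward, Cox5b by 0.52. Cox5a had 67.0 and 74.4 CPM in Msx1+ against 135.1 and 131.8 CPM in Msx1- cells at day 16 (-0.92, SE 0.07), and 104.3 and 95.4 CPM in Msx1+ against 147.5 and 147.9 CPM in Msx1- cells at day 8 (-0.57, SE 0.06), a difference of -0.35 (SE 0.09, adjusted p = 0.00915). Cox5a was named after its values had been seen. mt-Cytb moved the other way, by 0.40 (SE 0.10, adjusted p = 0.0105), with 2727 and 3286 CPM in Msx1+ and 2726 and 2830 CPM in Msx1- cells at day 16.

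Within a fraction, day 16 was set against day 8. In Msx1+ cells 15 nuclear members fell and 2 rose, with 45.9% of all genes called, 21.1% higher and 24.8% lower. Cox8c, Cox7a1 and Cox7c led the falls, and Cox7c, a small subunit of complex IV, had 122.4 and 153.4 CPM at day 16 and 250.6 and 195.5 CPM at day 8 (-0.69, SE 0.18, adjusted p = 0.0235). This call was lost without replicate 1 of either day (0.101 for day 8 and 0.11 for day 16), and that of Cox8c without replicate 1 of day 8 (0.0629) or 2 of day 16 (0.0695). Sdhc and Ndufs8 rose by 0.22 and 0.20, and both calls were lost without single libraries. These were replicate 2 of day 8 or day 16 for Sdhc (changes of 0.113 in both cases). For Ndufs8 they were replicate 1 (0.196) or 2 (0.195) of day 8 or 2 of day 16 (0.143). With library size alone both calls were lost (adjusted p = 0.384 for Sdhc and 0.341 for Ndufs8). The call for Sdhc was also lost with the replicate number as a block (0.055) and with only the groups compared (0.0603). mt-Cytb and mt-Nd2 rose by 0.40 and 0.32. The call for mt-Nd2 was lost without day-16 replicate 2 (0.103) and with library size alone (0.0664). Members called higher numbered 2 without day-8 replicate 2 and 1 without day-16 replicate 2, against 4 in all. In Msx1- cells 20 nuclear members fell, led by Atp5g1 (-0.39), Cox6b2 (-0.38) and Atp5e (-0.32), with 37.6% of all genes called, 19.7% higher and 17.8% lower. Members that fell numbered 8 without replicate 2 of day 8 and 9 without replicate 2 of day 16. Without these libraries the calls of Cox6b2 (adjusted p = 0.0623 and 0.07) and Atp5e (0.256 and 0.218) were lost. No mitochondrial gene was called in Msx1- cells by edgeR or DESeq2, and 0 had an unadjusted p below 0.05.

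Against the libraries labelled ES, nuclear members were lower in every sorted group, and these 4 comparisons share the same 2 libraries. All sorted groups came from EBs kept under doxycycline, whereas the ES cells were labelled untreated and grown with serum and LIF. Effects of treatment and culture therefore cannot be told apart from those of cell state in these 4 comparisons. In Msx1+ cells of day 16, 67 of 86 fell and 2 rose (median -0.56), with 71% of 22504 genes called, 37.3% higher and 33.7% lower. In Msx1- cells of day 16, 45 fell and 3 rose (-0.26), with 53% called, 28.5% higher and 24.5% lower. In Msx1+ cells of day 8, 62 fell and 3 rose (-0.47), with 61.5% called, 34.6% higher and 26.9% lower. In Msx1- cells of day 8, 27 fell and 1 rose (-0.14), with 33.6% called, 19% higher and 14.5% lower, and all members called numbered 19 without Msx1- replicate 1, against 30. Nuclear members took 1.05% and 1.06% of counts in the libraries labelled ES, above every sorted library. At day 16 complexes III, IV and V had medians of -0.76, -0.74 and -0.72 in Msx1+ cells. Uqcr10 and Uqcrq, small subunits of complex III, fell by 1.10 and 1.03 in Msx1+ cells of day 8.

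Mitochondrial genes followed no common direction against ES. mt-Nd2 rose in all 4 sorted groups, by 0.28 and 0.62 in Msx1+ and Msx1- cells of day 8 and by 0.59 and 0.78 in those of day 16, and its call in Msx1+ cells of day 8 was lost without ES replicate 1 (adjusted p = 0.153) or Msx1+ replicate 1 (0.0939). mt-Nd1 fell in Msx1+ cells of both days by 0.43, and mt-Co1 by 0.31 and 0.35, while neither passed in Msx1- cells (changes of -0.01 to 0.17). Scaled by library size alone, the day-8 call for mt-Co1 was lost (0.0728). Cox4i2 had 1.76 and 2.78 CPM in the libraries labelled ES, between the Msx1+ and the Msx1- cells. It rose by 0.91 and 1.03 in Msx1+ cells of days 8 and 16 and fell by 1.32 and 0.87 in Msx1- cells of these days. Without ES replicate 1 both Msx1+ calls were lost (adjusted p = 0.149 and 0.0797), and without ES replicate 2 both Msx1- calls (0.0868 and 0.309). The day-8 calls were also lost without replicate 1 of Msx1+ (0.0638) or Msx1- cells (0.0875), and the Msx1- call of day 16 without its replicate 2 (0.291). Ndufa4l2 rose in Msx1- cells by 2.08 and 2.27 at days 8 and 16. In Msx1+ cells of day 8 it rose by 0.59, a call lost without ES replicate 2 (0.297) or Msx1+ replicate 2 (0.161) and with DESeq2 (0.0541), and at day 16 it did not pass (0.29).

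Cox6a2 rose by 2.74 and 2.98 in Msx1+ cells of days 8 and 16 and by 2.12 in Msx1- cells of day 16, against 4 and 4 counts in the libraries labelled ES. Cox8c fell by 1.31 in Msx1+ cells of day 8, a call lost without either ES library (changes of -1.285 and -1.337) or Msx1+ replicate 2 (-0.953). This call was also lost with library size alone (adjusted p = 0.079), without a filter (0.0728) and with DESeq2 (0.055). At day 16 the ratio of Cox8c in Msx1+ cells to ES was 0.066, with an exact 95% counting interval of 0.0235 to 0.15. Cox7b2 and Cox7a1 fell by 2.66 and 2.25 in Msx1+ cells of day 16. Cox7a1 rose by 0.66 in Msx1- cells of that day, a call lost without ES replicate 1 (0.102) or Msx1- replicate 1 (0.214). Atp5l, the g subunit of the ATP synthase, had 57.6 and 58.3 CPM in Msx1- cells of day 8, against 85.2 and 88.0 CPM in ES (-0.58, SE 0.09), and fell by 0.77 in Msx1- cells of day 16. Ndufb6, an accessory subunit of complex I, had 39.6 and 40.9 CPM in Msx1- cells of day 8, against 57.8 and 56.1 CPM in ES (-0.50, SE 0.08), and shares 39% of its exon bases with Smim27 on the opposite strand. Atp5g1 fell by 0.82 in Msx1- cells of day 16.

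Promoters, taken from RefSeq on GRCm38.p6 as 250 bases before to 50 after each start, matched 68 of the 90 nuclear members. Letters of 4 factors with known roles in mitochondrial biogenesis were searched on both strands. The NRF1 motif, a palindrome of 10 letters given in capitals in the promoter of Ndufa11 below, was found in 7.35% of the members and 1.07% of 27025 genes, the ETS and GABPA motif CCGGAAG in 25% and 9.93%, the YY1 motif AAGATGGC in 13.2% and 3.19%, and the ESRRA motif TCAAGGTCA in 2.94% and 0.466%. At least 1 of them stood in 29 members. At day 2, 12 of 17 tested members with the ETS motif rose and 3 fell (median 0.31), and 23 of 49 without it rose and 13 fell (0.12). At day 8, 12 of 16 with it and 35 of 50 without it fell, and at day 16, 5 of 16 with it and 31 of 50 without it. With the NRF1 motif, 1 of 5 rose and 2 fell at day 2 (-0.12), and without it 34 of 61 rose and 14 fell (0.27). With the YY1 motif 6 of 9 rose (0.29), and without it 29 of 57 rose and 16 fell (0.16). These differences were not tested. The promoters of Atp5k, Ndufa11 and Cox7a1 are shown because the first pair share the NRF1 motif and moved in opposite directions at day 2, and Cox7a1 had the steepest well-counted change at day 16 and none of the motifs. Capitals mark a motif on either strand, that of NRF1 or CTTCCGG, the reverse complement of CCGGAAG, and no motifs overlap in these windows. The windows are chr5:108434350-108434649 on the minus strand for Atp5k, chr17:56717512-56717811 on the plus strand for Ndufa11 and chr7:30183921-30184220 on the plus strand for Cox7a1.
Atp5k: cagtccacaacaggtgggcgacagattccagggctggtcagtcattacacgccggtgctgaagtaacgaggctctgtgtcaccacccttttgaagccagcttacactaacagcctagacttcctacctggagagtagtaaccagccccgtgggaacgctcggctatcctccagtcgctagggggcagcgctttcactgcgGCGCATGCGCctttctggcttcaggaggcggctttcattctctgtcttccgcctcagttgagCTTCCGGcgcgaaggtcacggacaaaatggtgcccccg
Ndufa11: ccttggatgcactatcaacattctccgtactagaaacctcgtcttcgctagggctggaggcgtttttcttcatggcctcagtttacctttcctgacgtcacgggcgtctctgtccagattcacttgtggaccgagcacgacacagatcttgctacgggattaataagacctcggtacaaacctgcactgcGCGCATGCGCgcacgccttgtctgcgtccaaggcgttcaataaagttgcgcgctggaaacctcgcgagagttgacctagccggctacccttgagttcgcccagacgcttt
Cox7a1: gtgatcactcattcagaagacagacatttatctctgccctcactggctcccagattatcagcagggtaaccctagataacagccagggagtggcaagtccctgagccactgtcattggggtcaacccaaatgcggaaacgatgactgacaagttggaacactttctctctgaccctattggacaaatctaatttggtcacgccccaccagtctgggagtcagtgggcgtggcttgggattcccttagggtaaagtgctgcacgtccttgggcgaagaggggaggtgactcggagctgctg
A match of letters describes the sequence and is not a binding site.

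Related gene lists were counted the same way, and the shares of all genes given above for each comparison (33% lower at day 2, 24.3% at day 8 and 31% at day 16) are their background. Proteins of the mitochondrial ribosome, which translates the 13 messages, fell for 42 of 77 members at day 2 while 13 rose (median -0.20), while 64 of 76 fell and 1 rose in the day-8 comparison (-0.41), and 50 fell and 2 rose in that of day 16 (-0.33). Genes that copy, transcribe and process mitochondrial DNA and RNA fell for 23 of 33 in the day-2 comparison, with 4 higher (median -0.45). In that of day 8, 21 of 32 fell and 2 rose (-0.36), and in that of day 16, 17 fell and 6 rose (-0.24). Assembly factors of the complexes fell for 20 of 49 in the day-2 comparison, with 7 higher (-0.13). In that of day 8, 25 of 48 fell and 1 rose (-0.31), and in that of day 16, 17 fell and 5 rose (-0.13), a share of lower calls near that of all genes. At day 2 more nuclear subunits rose than fell (42 and 20 of 85), while in each of these 3 lists more genes fell than rose. Tfam, which packages mitochondrial DNA and starts its transcription, had 61.3 and 59.8 CPM in Dlx2 EBs against 110.6 and 104.3 CPM in GFP EBs (-0.83, SE 0.06). Tfam was named after its values had been seen.

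Of 18 citrate cycle enzymes, 10 fell and 3 rose at day 2, 10 fell at day 8, and 9 fell and 5 rose at day 16, with medians of -0.13, -0.20 and -0.17. Carriers that bring electrons to ubiquinone and cytochrome c rose for 8 of 19 and fell for 3 at day 2 (0.21), while 12 of 18 fell and 2 rose in the day-8 comparison (-0.30), and 10 fell and 4 rose in that of day 16 (-0.22). Of 20 regulators of the system, 7 rose and 9 fell at day 2, 4 rose and 10 fell at day 8, and 5 rose and 8 fell at day 16. Ppargc1a, a coactivator that drives mitochondrial biogenesis in muscle and brown fat, had 7.18 and 6.42 CPM in Dlx2 EBs against 0.122 and 0.242 CPM in GFP EBs, 5.04 and 4.42 CPM in Msx1+ against 0.632 and 0.406 CPM in Msx1- cells at day 8, and 1.91 and 1.33 CPM in Msx1+ against 0.605 and 0.262 CPM in Msx1- cells at day 16. It rose in all 3 comparisons (5.20, 3.17 and 1.89), and it too was named after its values had been seen. Glycolysis and hypoxia genes fell for 18 of 24 at day 2, with 2 higher (median -0.84), for 19 at day 8, with 1 higher (-0.74), and for 19 at day 16, with 2 higher (-1.29). In Msx1- cells of day 8, 15 of the 24 rose against the libraries labelled ES (0.41), and in Msx1+ cells of day 16, 18 fell (-1.01).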

How the data were processed

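Libraries were made from total RNA with the NEBNext Ultra RNA kit, so strand is not marked. The authors deposited raw read counts per gene symbol in 2 tables. Per the submitters' processing notes, the tools were HISAT2 2.1.0, fastp 0.20.0 and DESeq2 1.18.1 on GRCm38. Which program and gene models made the counts is not given in the sources used here. Columns of day 2 carry the line's name without doxycycline. They were taken for the induced groups, with no pairing of replicates. Symbols were matched to GENCODE vM21 on GRCm38 (102 of 103 members, and 25603 of 26157 and 53336 of 54114 symbols of the tables), and 40 members share exon bases with another gene.

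The day-2 table (4 libraries, 18650 genes), the sorted libraries (8, 22294 genes) and these with the libraries labelled ES (10, 22504 genes) were fitted apart with edgeR 4.0.16 in R 4.3.3 (filterByExpr, TMM, glmQLFit robust, glmQLFTest two-sided) in 10 comparisons, with Benjamini-Hochberg adjustment over all genes. The SE was back-computed from the F statistic. The fits were tested on simulated data.

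The members, gene lists and tests were chosen with earlier results of these data known. Named genes are all mitochondrial members, the 4 Sdh genes, the 3 nuclear members called with the largest change in each direction per comparison, and paralogous isoforms with their common forms. Others are marked as named after their values had been seen. Alternatives were RLE and library-size scaling, no filter, a filter of 1 CPM in 4 libraries, DESeq2 1.42.0, mitochondrial counts left out of library sizes, only the compared groups, a replicate block and each library left out. Lost calls given with single genes are not a full list.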

Additional observations from a re-analysis of the deposited data

Results flagged for a closer look

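The effect of the fraction (Msx1+ over Msx1-) differed between days 16 and 8 for 11 of 99 tested members (11.1%) by the interaction term of edgeR's quasi-likelihood fit. Over all 22294 genes 28.6% were called, so members were called less often than genes in general. The differences of log2 changes, day 16 minus day 8, were -2.36 for Cox7a1, -1.76 for mt-Nd4l, -0.52 for Cox5b, -0.46 for Ndufa1, -0.35 for Cox5a, 0.40 for mt-Cytb, 0.38 for Ndufa11, 0.37 for Sdhc, 0.28 for Sdhb, 0.27 for Ndufs8 and 0.27 for Ndufs1.

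For Ndufa11, Sdhb, Sdhc and Ndufs1 the change was negative and called at day 8 (-0.53, -0.27, -0.25 and -0.24) and not called at day 16 (-0.15, 0.01, 0.11 and 0.03). For Cox5b and Ndufa1 it was called only at day 16 (-0.62 and -0.60, against -0.10 and -0.15 at day 8). The mt-Nd4l value rests on 2.11 and 2.04 CPM in Msx1+ and 5.53 and 2.06 CPM in Msx1- cells at day 16, and on 3.04 and 5.07 CPM in Msx1+ and 2.25 and 2.14 CPM in Msx1- cells at day 8. This gene has an identical nuclear copy.

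Leaving out single libraries ended several of these calls. For mt-Nd4l the adjusted p was 0.107 to 0.186 without any of 6 libraries and 0.063 with the replicate number as a block, and without day-16 Msx1- replicate 1 the difference was -0.87. The adjusted p was, for Ndufa1 0.057 to 0.193 without any of 5, for Cox5b 0.054 to 0.0818 without any of 4, for Ndufa11 0.0923 to 0.147 without any of 4, for Sdhc 0.0681 to 0.139 without any of 4 and for Sdhb 0.0548 to 0.0784 without any of 3. Scaling by library size alone ended the calls of Ndufa11 (adjusted p = 0.292), Sdhb (0.413), Sdhc (0.331) and mt-Cytb (0.146).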

How the results depend on the processing

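Across the alternatives, 319 values of the main counts and shares stayed within their limits and 54 moved, and of the values of single genes 3860 kept their side of the threshold, 183 lost and 157 gained a call and 4 changed sign and were called with the other sign. A further 196 that were not called changed sign. The sign changes were of mt-Co3 and mt-Nd6. With each library left out, mt-Co3 ranged over -0.78 to 0.83 for Msx1+ against Msx1- at day 8, -1.16 to 0.45 for day 16 against day 8 in Msx1+ and -0.75 to 0.84 for day-8 Msx1+ against ES, changing sign without day-8 Msx1+ replicate 1. mt-Nd6 ranged over -0.19 to 0.21 for day-16 Msx1+ against ES, changing sign without ES replicate 2. Scaled by library size alone, 17 members were lower at day 2, 29 called and 26 lower at day 8, 0 higher and 11 lower in the interaction (edgeR; under the main scaling 12 nuclear and 2 mitochondrial members were higher at an unadjusted p below 0.05, and 12 members by DESeq2), 37 called, 1 higher and 36 lower for day 16 against day 8 in Msx1+, 11 called, 1 higher and 10 lower in Msx1-, and 5 and 8 higher in day-8 and day-16 Msx1- against ES. With RLE scaling and with DESeq2 the interaction had 17 called and 12 higher. The stricter filter left 1 higher at day 8. Without a filter, 2 were higher at day 16, 3 for day 16 against day 8 in Msx1- and 7 for day-8 Msx1- against ES. With only the groups compared these counts were 2, 3 and 9, with 49 called in the last, and 9 were higher in day-16 Msx1- against ES. With mitochondrial counts left out of the denominator the nuclear share was 1.06% in GFP EBs and 1.08% in ES.

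With each library left out, members called, higher and lower ranged over 63 to 72, 38 to 43 and 23 to 32 at day 2, 51 to 70, 1 to 3 and 48 to 68 at day 8, 37 to 52, 1 to 4 and 36 to 51 at day 16, and 7 to 13, 2 to 10 and 1 to 8 for the interaction. For day 16 against day 8 they ranged over 14 to 21, 1 to 6 and 12 to 19 in Msx1+ and 8 to 20, 0 to 1 and 8 to 20 in Msx1-. Against ES they ranged over 58 to 69, 2 to 4 and 54 to 67 (day-8 Msx1+), 19 to 32, 2 to 6 and 13 to 29 (day-8 Msx1-), 68 to 74, 3 to 5 and 63 to 70 (day-16 Msx1+) and 39 to 46, 3 to 6 and 34 to 43 (day-16 Msx1-).

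With replicate number as a replicate block, 83 members were called at day 2, 62 at day 8 and 46 at day 16, against 72, 63 and 47 without it. Same-numbered libraries correlated at -0.0464 to 0.115 over 10 pairs, with 1 over 0.1, and at 0.0428 at day 2, where the columns' own numbers were used, so the numbers were not taken as pairs. Depth limits Cox6a2, Cox7b2, Cox8c and mt-Atp8, which had few counts.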
